A study of Mus musculus with 32 samples.

Results

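The subcortical maternal complex is a protein assembly that forms beneath the plasma membrane of the growing mouse oocyte and persists in the outer cytoplasm of the early embryo. The 6 genes described here are Nlrp5 (also called Mater), Ooep (Floped), Tle6, Khdc3 (Filia), Padi6 and Zbed3. They were chosen by name as components of this complex, with earlier results of these data known. All 6 were present in the stage table of 24013 genes and in both knockdown tables of 22536 genes. The complex is built from RNA and protein stored during oocyte growth, and loss of a core component in the mother typically arrests embryos in early cleavage. Nlrp5, Ooep and Tle6 form the structural core, Khdc3 binds through Ooep and is linked to chromosome stability, Padi6 is needed for the cytoplasmic lattices of the egg, and Zbed3 is linked to the position of the division spindle.

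RNA sequencing had been done on 32 samples, 17 of them from unmanipulated stages. MII oocytes came from superovulated C57BL/6N females 20 h after hCG, and the zygote, cleavage-stage (early 2-cell, 2-cell, 4-cell, 8-cell) and inner cell mass (ICM) samples came from C57BL/6N females mated to DBA/2N males. Each stage had 2 samples except ICM, which was isolated by immunosurgery and had 3, and R1 mouse embryonic stem cells (mESC) grown with LIF and serum had 2. The other samples were siRNA-injected C57BL/6N x DBA/2N embryos cultured in CZB medium with glutamine, namely 8-cell embryos labelled Nr5a2 knockdown (4) or knockdown control (4) and blastocysts labelled Gata4 knockdown (4) or knockdown control (3). The labels do not say what the control embryos received, how many embryos a library pooled, or whether samples of a group came from separate litters, so a p-value here reflects how these samples scattered, and that scatter could be technical. The zona pellucida was removed before lysis, and libraries followed a modified Smart-seq2 protocol, which copies polyadenylated RNA into full-length cDNA. Values are FPKM (fragments per kilobase of transcript, scaled to sequencing depth), so levels of different genes can be compared per length. Because FPKM is relative to the rest of each library, fewer cells of a type and less RNA per cell cannot be told apart, nor can loss of an RNA and shortening of its poly(A) tail.

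The stage table gives 1 value per stage, so stages were compared without a test, and a gene was counted as higher or lower at a step when log2(FPKM + 1) differed by at least 1 and the higher stage reached 5 FPKM. Total FPKM ran from 234738 (2-cell) to 495643 (MII oocyte) per stage. In the knockdown tables, replicates of a group correlated with Pearson r = 0.926 to 0.958 (8-cell) and 0.923 to 0.976 (blastocyst). Rn45s, a precursor of ribosomal RNA, was listed at 0 in the zygote, 2-cell, 4-cell, 8-cell and ICM columns and in 3 of the 7 blastocyst libraries, and these blastocyst libraries stood apart from the other 4. Steps between a stage column with Rn45s and one with it at 0 cross the same divide. Among them are MII oocyte to zygote, zygote to early 2-cell, early 2-cell to 2-cell and ICM to mESC. Stage and column type cannot be told apart at these steps. The summed level of 12 cumulus and granulosa cell markers was 0.361 to 3.27 FPKM per stage, with 4 to 9 of the 12 listed at 0, and that of 8 fibroblast markers was 0 to 2.36 FPKM. In the injected embryos the 12 markers summed to 0 to 0.259 FPKM in 8-cell libraries. In blastocyst libraries they summed to 0.660 to 18.8 FPKM, with the highest sum in Gata4 knockdown library 4, where 1 of the 12 reached 1 FPKM. The summed level of 11 oocyte markers was 30296 FPKM in MII oocytes and 55.9 FPKM in 8-cell embryos.

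Promoter sequences are shown for Khdc3 and Ooep because their courses over the stages departed from those of the other members. Ooep did so by its zygote, ICM and mESC levels. Both lie on chromosome 9, while Nlrp5 is on chromosome 7, Tle6 on 10, Padi6 on 4 and Zbed3 on 13. RefSeq promoters (build GRCm38.p6) were found for all 6 symbols, and the 250 bases before each annotated start were searched on both strands. Searched were an extended binding element of NR5A2, TCAAGGNCA, its shorter form AAGGTCA, which can overlap the first, and TAATTG, an element of the oocyte factor NOBOX. The Khdc3 window, chr9:73102148-73102397 on the plus strand, held 1 match of TCAAGGNCA, on the minus strand and beginning 208 bases before the start. In that window 57 bases, with the match, also lie in an exon annotated in GENCODE. Only the 30 bases around the match, chr9:73102180-73102209, are therefore printed, with the matched letters in capitals.
Khdc3: gagattagatTGGCCTTGAagtcaggtaac
The Ooep window, chr9:78378589-78378838 on the minus strand, held 1 match of TAATTG, read here as its complement and beginning 195 bases before the start. The stretch printed, chr9:78378726-78378838, is the part that GENCODE places outside any exon.
Ooep: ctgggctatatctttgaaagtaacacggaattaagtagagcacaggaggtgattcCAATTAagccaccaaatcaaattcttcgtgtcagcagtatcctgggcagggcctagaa
Of 32851 RefSeq windows of the same length, 456 (1.39%) held TCAAGGNCA, 4.08% held AAGGTCA and 7.17% held TAATTG. Either NR5A2 form was in 5.02%. Zbed3 had 3 windows, Nlrp5 and Tle6 had 2 each and the other members 1 each, and every window was searched for all these strings. No window of Nlrp5, Tle6, Padi6 or Zbed3 held any of these letters. A match is a string of letters in a window and no measurement of binding.

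The core genes were abundant in the oocyte, and Nlrp5 and Tle6 were lowest at the last stages. Nlrp5, an NLR-family scaffold, was at 187 FPKM in MII oocytes, 205 in zygotes, 128 in early 2-cell, 14.3 in 2-cell, 9.40 in 4-cell and 3.11 in 8-cell embryos, 0.394 in ICM and listed at 0 in mESC. Tle6, a Groucho-like protein, was level over the first stages at 93.9, 90.3 and 88.3 FPKM, then 14.8, 11.4, 5.83, 4.28 and 0.421 FPKM from 2-cell embryos to mESC. Both thus kept most of their oocyte level through the early 2-cell stage, and on the log2(FPKM + 1) scale the step to the 2-cell stage was the largest for each. At that step Nlrp5 was 8.93-fold lower and Tle6 5.96-fold lower.

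Ooep, the KH-domain partner of both, departed from this course at each end. It was at 145 FPKM in MII oocytes, 594 in zygotes, 289 in early 2-cell, 30.8 in 2-cell, 4.90 in 4-cell and 2.66 in 8-cell embryos, 85.8 in ICM and 114 in mESC. The zygote value was 4.10-fold that of the oocyte, the 8-cell value was the lowest, and the ICM value was 32.3-fold that of 8-cell embryos. In mESC, Ooep was the highest of the 6 members, while Nlrp5 and Padi6 were listed at 0.

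Padi6, a member of the peptidylarginine deiminase family, was lower from the first step on. Its level was 1277 FPKM in MII oocytes, 274 in zygotes, 104 in early 2-cell, 23.4 in 2-cell, 21.3 in 4-cell and 14.3 in 8-cell embryos, then 0.615 in ICM and listed at 0 in mESC. It was 4.66-fold lower in zygotes than in oocytes, a step at which Nlrp5, Tle6 and Khdc3 differed by at most 1.10-fold.

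Zbed3, a zinc-finger protein that binds Axin, was among the most abundant of all transcripts. It ranked 2 in MII oocytes at 8502 FPKM, 3 in zygotes at 4047 FPKM and 1 in early 2-cell embryos at 9993 FPKM, where it made up 3.21% of the total. It was then at 394 FPKM in 2-cell, 47.3 in 4-cell and 7.43 in 8-cell embryos, 6.30 in ICM and 2.18 in mESC. The step from early 2-cell to 2-cell was 25.4-fold, the largest among the members at that step, and the 8-cell level was 1144-fold below that of the oocyte. The small nucleolar RNA Snora47 lies within Zbed3 on the same strand and was listed at 0 in MII oocytes, 5131 FPKM in zygotes and 5189 FPKM in early 2-cell embryos, and how reads over both were divided is not given in the sources used here.

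Khdc3 was low in the oocyte and highest in ICM. It was at 5.74 FPKM in MII oocytes, 5.99 in zygotes, 6.59 in early 2-cell and 4.37 in 2-cell embryos, then 40.6 in 4-cell embryos, 109 in 8-cell embryos, 611 in ICM and 9.59 in mESC. Up to the 2-cell stage it was the lowest of the 6, and in 8-cell embryos and ICM the highest. It ranked 5372 among all genes in the oocyte and 71 in ICM, and the ICM level was 63.7-fold that of mESC. GENCODE lists a protein-coding gene, Gm20509, on the same strand over Khdc3, which holds 77.4% of the Khdc3 coding sequence at 89.1% identity in the longest match. It is not a row of the tables, so the Khdc3 values are uncertain to the extent that reads were shared with it.

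**Figure D1:**
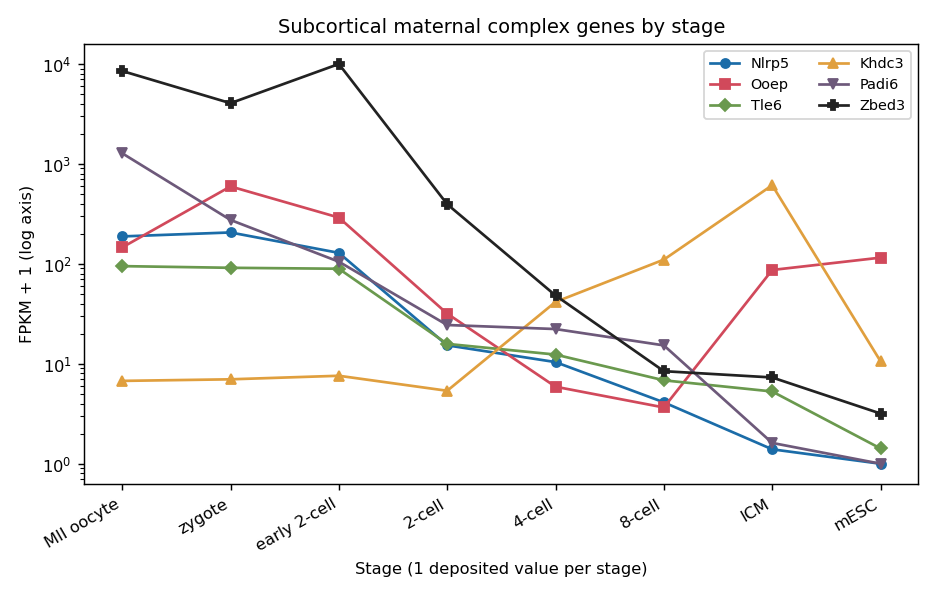
Level of the 6 genes by stage, as FPKM + 1 on a log axis, with 1 deposited value per stage and no error bar. Zbed3 is at the top through the 4-cell stage, 5 curves drop between early 2-cell and 2-cell embryos, Khdc3 climbs from 4.37 FPKM in 2-cell embryos to 611 FPKM in ICM, and Ooep is high at both ends.

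Read together, the members made up 2.06% of summed FPKM in MII oocytes, 1.66% in zygotes and 3.41% in early 2-cell embryos, then 0.205% in 2-cell and 0.0425% in 8-cell embryos. Without Zbed3 the shares were 0.345%, 0.371%, 0.198%, 0.0374% and 0.0402%. In 4-cell embryos, ICM and mESC the members made up 0.0433%, 0.196% and 0.0370%, and without Zbed3 0.0281%, 0.195% and 0.0364%. From early 2-cell to 2-cell embryos 5 of 6 members were lower, all but Khdc3, and none was higher, beside 34.3% of 7250 genes lower and 34.7% higher. The median log2 difference of the members was −2.79, and that of all genes counted was −0.04. From MII oocytes to 8-cell embryos 5 were lower (43.2% of genes) and 1, Khdc3, higher (38.0% of genes), with a median of −5.42 for the members and −0.36 for all genes. Both comparisons set a column with Rn45s against one without it, so stage and column type cannot be told apart.

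The remaining steps moved fewer members. From MII oocyte to zygote Padi6 and Zbed3 were lower (21.6% of genes) and Ooep higher (12.6%), and from zygote to early 2-cell Ooep and Padi6 were lower (8.58%) and Zbed3 higher (5.33%). From 2-cell to 4-cell Ooep and Zbed3 were lower (17.3%) and Khdc3 higher (24.1%), and from 4-cell to 8-cell Nlrp5 and Zbed3 were lower (9.71%) and Khdc3 higher (6.90%). From 8-cell to ICM Padi6 was lower (21.9%) and Ooep and Khdc3 higher (27.8%), and from ICM to mESC Khdc3 and Zbed3 were lower (40.6%) and none higher (11.6%). Each percentage is the share of all genes counted at that step that went the same way.

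Across the 8 stage columns, log2(FPKM + 1) of Nlrp5, Tle6, Padi6 and Zbed3 correlated with each other at Pearson r = 0.908 to 0.981. Ooep correlated with these 4 at 0.320 to 0.571, and Khdc3 with all other members at −0.672 to −0.450. These coefficients describe 8 points that share the same columns. The genes most like Nlrp5 among 5585 that reached 20 FPKM at some stage were Ccno (r = 0.997), Mat2b (0.996) and Nlrp14 (0.995), and 434 genes exceeded 0.95. Gm10857, Obox5 and Spin1 were most like Zbed3 (547 genes over 0.95). For Padi6 they were Syne2, Slc6a9 and the oocyte growth factor Gdf9 (128 genes), and for Tle6 they were Siah1b, Tiparp and Helq (278 genes). Few genes shared the course of the other members: 5 exceeded 0.95 with Ooep, led by Bet1 (0.983), Nudt5 (0.9755) and Adk (0.968), and 25 with Khdc3, led by Bsg (0.996), Tmem55a (0.981) and the water channel Aqp3 (0.980). Most like the mean of the 6 were Pramef12, 3110001I22Rik, Dlgap4, Rbm18 and Baiap2l1.

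Other genes tied to the complex were divided in a similar way. Of 8 genes for proteins reported with it, 6 were lower in 8-cell embryos than in MII oocytes and Kpna2, an importin, was higher, with a median log2 difference of −4.47, beside 43.2% of all genes lower and 38.0% higher at this comparison and a median of −0.36. The examples that follow were picked for a high level in MII oocytes, which favours a fall. Nlrp14 was at 993 FPKM in oocytes and 6.05 in 8-cell embryos, Nlrp4f at 874 and 2.08, and the DNA methylation factor Uhrf1 at 126 and 3.26. The actin regulator Cfl1 was at 410 and 605 FPKM. Of 16 counted genes for other maternal-effect factors, 10 were lower and 4 higher (median −3.79), with Btg4 at 3544 and 5.68 FPKM and Dppa3 at 1687 and 2527 FPKM. All 11 oocyte markers were lower (median −8.24). Of 5 oocyte transcription factors 4 were lower, among them Nobox, at 76.7 FPKM in oocytes and 0.877 in 8-cell embryos.

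Relatives of the members by protein family took several courses. Padi1 to Padi4 stayed at or below 0.534 FPKM and Tle2 at or below 0.0505 FPKM at every stage. Among the other relatives of Tle6, Tle4 was at 1.91 FPKM in oocytes, 14.6 in 8-cell embryos, 7.95 in ICM and 10.5 in mESC. The highest stage values were 1.82 FPKM for Tle1, 2.24 for Tle3 and 6.61 for Aes. Khdc1b, a KH-domain gene, was at 2112 FPKM in oocytes and 22.4 in 8-cell embryos. Dppa5a, a pluripotency-associated KH-domain gene and the direct neighbour of Ooep, was at 52.2 FPKM in oocytes, 1617 in 8-cell embryos and 12622 in ICM. From 8-cell embryos to ICM Dppa5a was 7.80-fold higher, beside 32.3-fold for Ooep and 5.59-fold for Khdc3. The other flank of Ooep, Ddx43, peaked at 3.38 FPKM in 2-cell embryos, and Rsl24d1 next to Khdc3 was highest in 4-cell embryos at 361 FPKM and at 88.2 FPKM in ICM.

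In 8-cell embryos injected with Nr5a2 siRNA, Khdc3 was the 1 member that fell. Nr5a2, a nuclear receptor of the early embryo, was itself at 23.6, 20.3, 13.1 and 25.2 FPKM in controls 1 to 4 and at 3.76, 4.25, 6.72 and 6.60 FPKM in knockdown libraries 1 to 4 (log2 fold change −1.76, limma adjusted p = 0.0143). For Khdc3 the 4 controls read 355, 536, 298 and 358 FPKM, while knockdown libraries 1 to 4 read 12.2, 20.9, 208 and 39.5 FPKM. The groups did not overlap, and knockdown library 3 lay far above the other 3. The share of all genes without overlap between these groups was not counted. The means were 387 ± 104 (SD, n = 4) and 70.1 ± 92.5 (SD, n = 4), a 5.52-fold difference. Khdc3 ranked 64 to 125 among all genes in the controls and 229 to 3127 in the knockdown libraries.

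On the log2(FPKM + 1) scale, which understates changes of low genes, the difference in Khdc3 was −3.26 (SE 0.65, 95% confidence interval −4.68 to −1.83, limma adjusted p = 0.0346). By an exact two-sided permutation test p was 0.0286, which is as small as 70 arrangements of the libraries can give. All 6 members passed the filter of 1 FPKM in 4 libraries, and 1 of 6 fell, beside 0.698% of 8170 genes tested that fell and 1.57% that rose (2.26% in either direction). Of all genes 128 rose and 57 fell with a median of 0.12, and with median scaling, which moves that median to −0.012, 65 rose and 80 fell while Khdc3 was at −3.39 (limma adjusted p = 0.0303). Without knockdown library 3 the difference was −4.06 with an adjusted p of 0.000644. In each of the other 7 fits that left out 1 library the sign held but the limma adjusted p was 0.0614 to 0.0991, and it was 0.157 with no filter on low values, so the call did not hold under these settings.

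None of the other 5 members passed the test. Padi6 was at 8.21, 4.25, 11.1 and 11.2 FPKM in controls and 3.37, 5.82, 5.84 and 7.85 FPKM in knockdown libraries (log2 fold change −0.50, 95% interval −1.21 to 0.21, limma adjusted p = 0.408). Tle6 was at 6.32, 3.68, 8.42 and 5.18 FPKM against 3.86, 6.51, 4.35 and 6.44 FPKM (−0.11, interval −0.73 to 0.50, limma adjusted p = 0.845). The groups of both genes overlapped.

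Zbed3 was at 3.02, 1.74, 2.98 and 2.44 FPKM in controls and 6.33, 3.81, 1.19 and 2.63 FPKM in knockdown libraries (log2 fold change 0.22, interval −0.54 to 0.99, limma adjusted p = 0.748). Ooep was at 2.92, 0.987, 1.41 and 1.15 FPKM against 0.421, 2.45, 0.490 and 1.25 FPKM (−0.32, interval −1.06 to 0.41, limma adjusted p = 0.608). Nlrp5 was at 1.15, 0.879, 0.545 and 1.90 FPKM against 1.93, 1.36, 0.768 and 1.01 FPKM (0.11, interval −0.47 to 0.69, limma adjusted p = 0.844). All 3 overlapped between the groups. On the log2(FPKM + 1) scale the intervals leave room for changes of up to about 1 unit in Ooep and Zbed3. At these low levels the fold changes in FPKM itself could be larger. With a pseudocount of 0.1 the Ooep difference was −0.64 (limma adjusted p = 0.571). In the controls the order of levels was Khdc3 far above Padi6 and Tle6, which overlapped each other, then Zbed3, Ooep and Nlrp5, which overlapped in part.

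**Figure D2:**
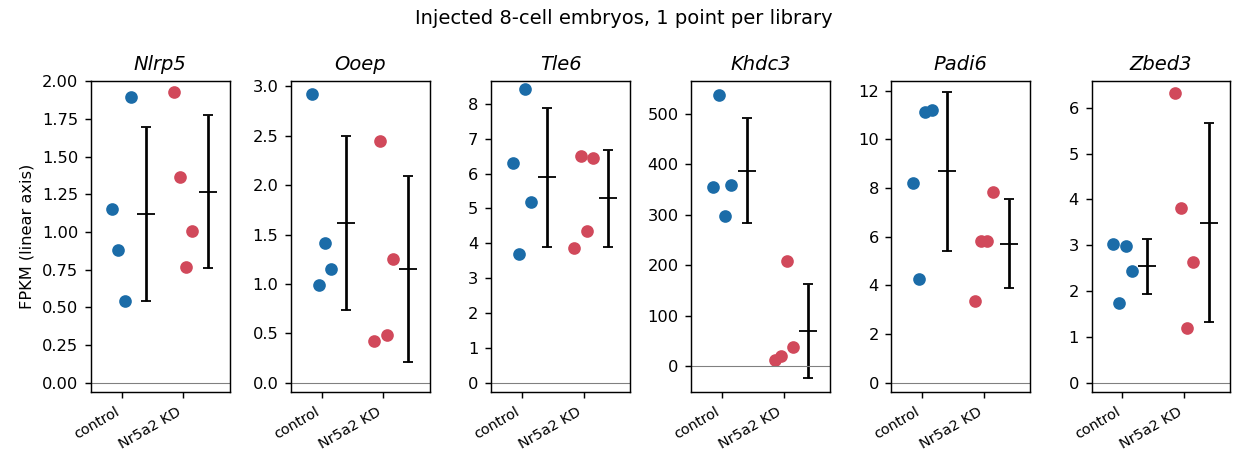
FPKM of each member in injected 8-cell embryos on linear axes, 1 point per library, with the mean and SD of each group of 4 as a bar beside the points. In the Khdc3 panel the groups do not overlap, with controls from 298 to 536 and knockdown libraries from 12.2 to 208. How many of all genes lack overlap was not counted.

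Gene groups around the members were then read in the same libraries. None of 5 tested genes for proteins reported with the complex and none of 10 other maternal-effect genes passed limma's test, with 0 and 3 at an unadjusted p under 0.05, beside 1683 of all 8170 genes tested. The 5 oocyte markers tested had negative differences with a median of −0.50, none passed (2 at an unadjusted p under 0.05), and all genes tested had a median of 0.12. The summed oocyte markers were at 40.6 to 133 FPKM in controls and 28.6 to 67.9 FPKM in knockdown libraries. The 2-cell stage markers summed to 1.11 to 4.49 FPKM in controls and 5.99 to 12.5 FPKM in knockdown libraries. These sums rest on low values, with 0 to 2 of the 8 at 1 FPKM in each control and 2 to 4 in each knockdown library. Only 1 of the 8 was tested, and it was not called. The pluripotency markers summed to 153 to 285 FPKM in controls and 40.8 to 156 FPKM in knockdown libraries, with 6 tested and 1, Tdgf1, called lower. The trophectoderm markers summed to 83.1 to 109 FPKM in controls and 105 to 142 FPKM in knockdown libraries, with a median difference of 1.02 over 4 tested genes, 3 of them positive, 2 at an unadjusted p under 0.05 and none called. The primitive endoderm markers summed to 31.8 to 43.5 and 19.3 to 35.4 FPKM. The part of stage or cell makeup in the Khdc3 difference was not tested.

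Khdc1b, an oocyte-rich relative of Khdc3, went the other way. It was at 0.997, 2.39, 1.24 and 2.73 FPKM in controls and 18.9, 10.8, 7.41 and 33.7 FPKM in knockdown libraries (log2 fold change 2.56, SE 0.41, limma adjusted p = 0.0166). The groups did not overlap, and the share of all genes without overlap was not counted. Tdgf1, a Nodal co-receptor among the pluripotency markers, was at 50.5, 49.5, 40.0 and 93.9 FPKM in controls and 0.161, 1.24, 5.53 and 1.70 FPKM in knockdown libraries (−4.44, limma adjusted p = 0.00182). Knockdown library 3 was the highest of its group for Tdgf1, as it was for Khdc3 and, narrowly, for Nr5a2.

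Of the genes near Khdc3 and Ooep, Rsl24d1, Rab27a and Dppa5a were tested and did not pass, and Ddx43 and Gsta2 were below the filter. Rsl24d1, next to Khdc3, was at 113 to 154 FPKM in controls and 117 to 176 FPKM in knockdown libraries (log2 fold change 0.01, interval −0.39 to 0.41). Rab27a, on the other side of Khdc3, was at 1.42 to 2.15 FPKM against 0.676 to 2.71 FPKM (−0.11, interval −0.70 to 0.48). The groups of both overlapped. Dppa5a was at 583, 412, 408 and 451 FPKM in controls and 216, 193, 415 and 326 FPKM in knockdown libraries (−0.74, limma adjusted p = 0.119), and library 3 overlapped the controls. The ratio of Khdc3 to Dppa5a was 0.609 to 1.30 in controls, 0.501 in knockdown library 3 and 0.0566 to 0.121 in the other 3.

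By stage, Nr5a2 and Khdc3 peaked apart. Nr5a2 was at 3.46, 3.59 and 3.30 FPKM from MII oocyte to early 2-cell, 26.9 in 2-cell, 48.1 in 4-cell and 38.4 in 8-cell embryos, 4.65 in ICM and 2.48 in mESC. In 2-cell embryos Khdc3 was still at 4.37 FPKM, and its ICM peak of 611 FPKM stood beside the low ICM value of Nr5a2. Uninjected 8-cell embryos held 109 FPKM of Khdc3 in the stage table, below all 4 injected controls (298 to 536 FPKM), but the tables were made separately and this gap was not tested.

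In blastocysts injected with Gata4 siRNA no member passed the test. Gata4, a factor of the primitive endoderm, was at 3.18, 0.716 and 5.44 FPKM in controls 1 to 3 and 0.368 FPKM in knockdown library 2, and was listed at 0 in the other 3 (exact two-sided permutation p = 0.0571, the smallest that 35 arrangements allow). Khdc3 was at 557, 964 and 401 FPKM in controls and 924, 752, 527 and 476 FPKM in knockdown libraries, and Ooep at 18.3, 43.3 and 13.5 FPKM against 46.7, 34.6, 18.2 and 13.6 FPKM. The groups overlapped for both genes, with log2 fold changes of 0.11 (interval −0.67 to 0.88) and 0.18 (interval −0.79 to 1.16). Of the 4 members that passed the filter of 1 FPKM in 3 libraries, limma called 0, with 0 at an unadjusted p under 0.05, beside 0.0342% of 8782 genes that fell and 0 that rose, and 202 at an unadjusted p under 0.05. These intervals do not show that the members were unaffected.

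The 4 other members were low in blastocysts. Tle6 was at 2.17, 3.10 and 3.62 FPKM in controls and 5.02, 3.21, 2.35 and 2.76 FPKM in knockdown libraries (log2 fold change 0.11, interval −0.67 to 0.89). Padi6 was at 0.148, 0.499 and 0.378 FPKM in controls and at 1.36, 1.61 and 1.39 FPKM in knockdown libraries 1 to 3, and was listed at 0 in library 4 (0.56, interval −0.16 to 1.27). It passed the filter only through the knockdown libraries. Zbed3 was at 0.875, 0.423 and 0.809 FPKM against 0.701, 1.06, 0 and 0.306 FPKM, and Nlrp5 was listed at 0 in all but control 1 (0.0298 FPKM), so neither was tested. The order in blastocysts was thus Khdc3, Ooep and Tle6 without overlap between neighbours, then Padi6 and Zbed3, which overlapped.

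**Figure D3:**
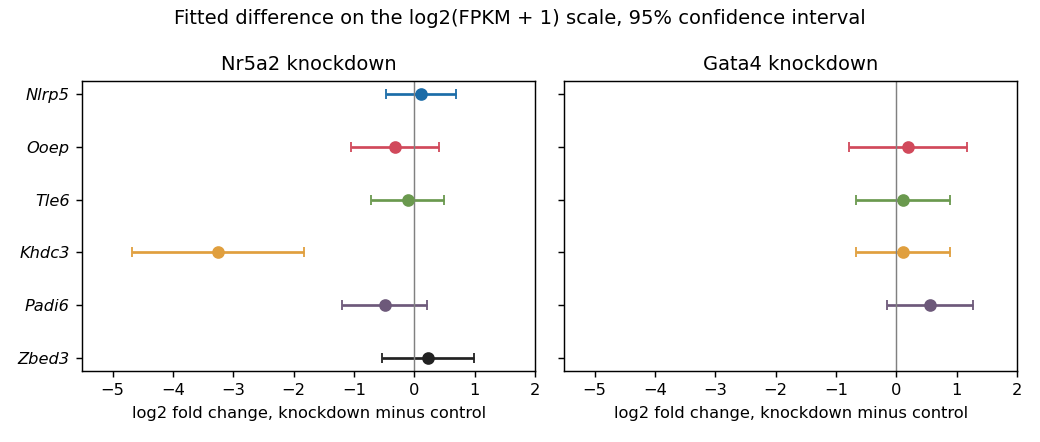
Fitted log2 fold change (knockdown minus control, log2(FPKM + 1) scale) of each tested member with its 95% confidence interval, in the Nr5a2 knockdown at left and the Gata4 knockdown at right. The interval of Khdc3 in the Nr5a2 knockdown, −4.68 to −1.83, is the 1 interval that leaves out 0, and Nlrp5 and Zbed3 were not tested in blastocysts.

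Khdc3 and Ooep in blastocysts separated by library type and not by label, and how many of all genes did so was not counted. In the 3 libraries with Rn45s listed at 0 (control 2, knockdown 1 and 2) Khdc3 was at 752 to 964 FPKM, and in the 4 with Rn45s at 401 to 557 FPKM. For Ooep the ranges were 34.6 to 46.7 and 13.5 to 18.3 FPKM. The mean ratio between the types was 1.795 for Khdc3, 2.61 for Ooep and 1.39 for Tle6, beside a median of 1.69 over all genes tested and 1.58 for total FPKM without Rn45s. The Khdc3 ratio was thus close to that of genes at large. With the type as a term in the fit, the differences by label were −0.03 for Khdc3 and −0.04 for Ooep. The ratio of Khdc3 to Ooep, which library scaling does not touch, was 19.8 to 22.3 in the libraries with Rn45s listed at 0 and 28.9 to 34.9 in those with Rn45s, so the types did not overlap in this ratio either. In the 8-cell controls it was 122 to 543.

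**Figure D4:**
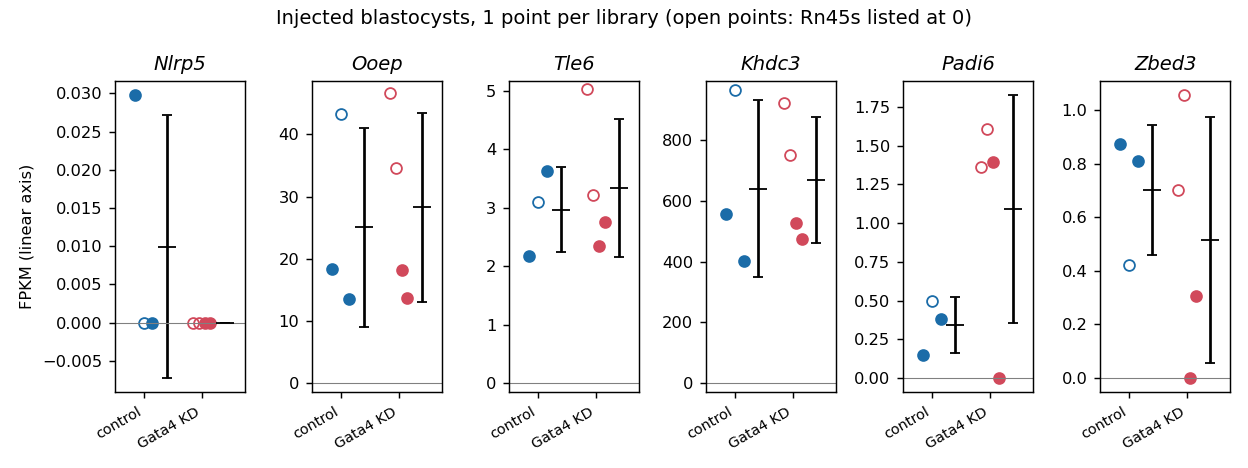
FPKM of each member in injected blastocysts on linear axes, 1 point per library, with the mean and SD of each group (3 controls, 4 knockdown libraries) as a bar. Open points mark libraries with Rn45s listed at 0, and for Khdc3 and Ooep the 3 open points lie above the 4 filled ones. How many of all genes separate in this way was not counted.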

How the data were processed

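The authors deposited FPKM values in 3 tables. The submitters' processing notes name CASAVA 1.8, STAR 2.4.0 and build mm9 for all 32 samples and Cufflinks 2.2.1 for 20 of them. How replicates became 1 stage column is not given in the sources used here, and read depth is unknown; in the 8-cell knockdown table the steps of low values gave relative depths of 1 to 2.91. Samples were grouped by their titles. Each knockdown was fitted on the whole table with limma 3.58.1 in R 4.3.3 (trend, log2(FPKM + 1), genes at 1 FPKM or more in 4 or 3 libraries), and p-values were Benjamini-Hochberg adjusted over all genes tested, with 0.05 as threshold. Single values used exact permutation tests counting the smaller tail 2 times. The fits were tested on simulated data with independent errors for each gene and no shift of whole libraries. That setting differs from these libraries, so the simulation does not show how the fits behave on them. Coding sequences of the members were compared with GENCODE M21 transcripts (blastn). Nlrp5 shares 76.4% of its coding sequence with Gm18757 (86.3% identity) and 41.2% with Nlrp5-ps (97.8%), and Tle6 25.6% with Gm9136 (92.4%), so their values are uncertain to that extent. The members and gene lists were chosen with earlier results of these data known. Named genes were the members, the targeted genes, list members that were called or high in MII oocytes, the genes most like each member by stage, and the neighbours of Ooep and Khdc3. Alternatives were pseudocounts of 0.1 and 5, other filters, scalings, a replicate block, a library type term, and leaving out each library.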

Additional observations from a re-analysis of the deposited data

Results flagged for a closer look

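Each member was checked in each group of 4 libraries for a single library far from the rest. The measure was the gap in FPKM to its nearest neighbour over the whole range. Of 18 such groups 2 stood out, where chance alone gives about 1 in 20 for normally distributed values. Nlrp5 was listed at 0 in every Gata4 knockdown library, so that group could not stand out. Khdc3 in knockdown library 3 of the Nr5a2 8-cell embryos was 207.8 FPKM, beside 12.2 to 39.5 FPKM in the other 3. On the log2(FPKM + 1) scale it stood less far apart, with libraries 1 to 4 at 3.73, 4.45, 7.71 and 5.34. Padi6 in knockdown library 4 of the Gata4 blastocysts was listed at 0 FPKM, beside 1.36 to 1.61 FPKM in the other 3.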

How the results depend on the processing

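Over the 7 consecutive stage steps the members were lower in 16 and higher in 6 of 42 cases, and 11 to 18 and 4 to 6 under the 6 alternatives; from MII oocyte to 8-cell the counts stayed at 5 and 1. Khdc3 in the Nr5a2 knockdown was negative under all 17 alternatives (−4.06 to −2.73), and the call was lost with no filter, under the replicate block and in 7 of 8 fits without 1 library. The number of members lower was then 0 with no filter and 0 under the block (1 at an unadjusted p under 0.05 in limma each time), and 0 to 1 without 1 library. Genes called higher in that knockdown (128) were 73 with a pseudocount of 0.1, 7 with no filter, 65 with median scaling, 68 with quantile normalization, 64 with each library rescaled to the same total, and 13 to 177 without 1 library. Genes called lower (57) were 35 with a pseudocount of 0.1, 4 with no filter, and 8 to 108 without 1 library. For the Gata4 knockdown, genes called lower (3) were 1 with a pseudocount of 0.1, 14 under the replicate block, 1 to 25 without 1 library, and 0 under each other filter and scaling, with the library type term and with only libraries with Rn45s, where limma gave 80 to 736 genes in either direction at an unadjusted p under 0.05. Genes called higher (0) were 4 under the block and 0 to 5 without 1 library. Replicate numbers did not pair the samples (correlations of deviations −0.11 to 0.08 for Nr5a2 and −0.10 to 0.28 for Gata4); under the replicate block the Nr5a2 knockdown gave 37 genes higher and 18 lower, with an adjusted p of 0.0565 for Khdc3. Among uncalled members signs turned. In the Nr5a2 knockdown Nlrp5 was −0.019 with median scaling, −0.041 with quantile normalization and −0.028 to 0.27 without 1 library, Tle6 −0.29 to 0.050 and Zbed3 −0.055 to 0.52. In the Gata4 knockdown Khdc3 was −0.24 with quantile normalization, −0.011 rescaled to the same total, −0.033 with the type term and −0.18 to 0.45 without 1 library, Ooep −0.040 with the type term and −0.15 to 0.65, and Tle6 −0.11 with only libraries with Rn45s and −0.061 to 0.23. The cause was not tested.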
